A study of Mus musculus with 6 samples.

Results

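The unfolded protein response is followed here through 10 of its genes, of 16557 genes found in at least 1 of the tables, in 6 *Smarcb1*-deficient mouse rhabdoid tumors. They were taken as a list by name and not by a measured value, though with earlier results of these data known. They are the endoplasmic reticulum (ER) chaperones and folding factors *Hspa5*, *Hsp90b1*, *Calr*, *Pdia4* and *Sdf2l1*, the degradation factor *Herpud1*, the transcription factors *Xbp1*, *Atf4* and *Ddit3*, and the pseudokinase gene *Trib3*. All 10 were found, 9 of them in every tumor. *Trib3* is missing from the table of S2 and counts as 0 there.

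The samples are single-cell RNA sequencing libraries of 3 MYC spinal tumors, called S1, S2 and S3 (mice aged 19, 26 and 17 weeks), and 3 extracranial rhabdoid tumors, eRT, called E1, E2 and E3 (mice aged 17, 29 and 22 weeks by the sample labels). All mice carried floxed *Smarcb1* alleles (Smarcb1 fl/fl) and a tamoxifen-inducible Cre recombinase, which was switched on by tamoxifen at 50 mg/kg given to the pregnant mother at day 6.5 post coitum. The inducible Cre was driven from Rosa26, which is active in most cell types, in the MYC spinal mice and that of E1, and by *Sox2* in those of E2 and E3, so the subtype and the mouse model cannot be fully told apart. Each library is 1 tumor of 1 mouse, loss of *Smarcb1* is shared by both subtypes, and no normal tissue is among the samples, so the immune cells of the same tumor serve as the reference.

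The ER is where secreted and membrane proteins fold. When unfolded proteins accumulate there, the sensor Ire1 (gene *Ern1*) splices the messenger RNA of *Xbp1*, the sensor Atf6 is cleaved to a transcription factor, and the sensor kinase Perk (*Eif2ak3*) slows translation while favoring that of *Atf4*. These factors raise chaperones and degradation factors, and under lasting stress *Ddit3*, which encodes Chop, and *Trib3*. Splicing of *Xbp1* and translation of *Atf4* leave no mark in counts of 3′ tags, so only the transcript levels of these genes were measured.

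All 10 genes have a RefSeq promoter in the GRCm38.p6 assembly, and the windows of 4 of them are shown because they hold the letters by which these genes are textbook targets, or, for *Sdf2l1*, none of them. Each run is the 250 bases before the RefSeq start on the strand of the gene. Capitals mark matches, on either strand, to the ER stress response element (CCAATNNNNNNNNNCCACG), the ER stress response element II (ATTGGNCCACG), the Atf4 and C/EBP composite site (TGATGCAA) and the Xbp1 and Atf6 site (TGACGTG). The windows are chr2:34771840-34772089 (plus strand) for *Hspa5*, chr10:86705445-86705694 (minus strand) for *Hsp90b1*, chr8:94386179-94386428 (plus strand) for *Herpud1* and chr16:17132384-17132633 (minus strand) for *Sdf2l1*.
Hspa5: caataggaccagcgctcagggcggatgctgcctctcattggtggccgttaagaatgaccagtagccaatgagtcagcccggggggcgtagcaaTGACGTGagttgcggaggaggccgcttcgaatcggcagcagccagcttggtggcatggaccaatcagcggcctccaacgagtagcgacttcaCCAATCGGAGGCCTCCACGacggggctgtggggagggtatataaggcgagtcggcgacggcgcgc
Hsp90b1: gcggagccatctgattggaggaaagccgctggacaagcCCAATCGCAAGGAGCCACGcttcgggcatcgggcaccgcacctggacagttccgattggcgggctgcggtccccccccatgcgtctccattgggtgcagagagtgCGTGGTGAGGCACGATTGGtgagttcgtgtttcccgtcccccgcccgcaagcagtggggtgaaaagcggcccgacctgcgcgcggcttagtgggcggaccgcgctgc
Herpud1: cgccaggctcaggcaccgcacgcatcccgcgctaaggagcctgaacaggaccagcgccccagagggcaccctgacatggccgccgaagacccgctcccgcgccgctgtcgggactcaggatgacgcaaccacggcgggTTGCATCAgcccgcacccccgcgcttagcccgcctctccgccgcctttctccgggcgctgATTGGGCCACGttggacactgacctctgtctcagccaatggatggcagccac
Sdf2l1: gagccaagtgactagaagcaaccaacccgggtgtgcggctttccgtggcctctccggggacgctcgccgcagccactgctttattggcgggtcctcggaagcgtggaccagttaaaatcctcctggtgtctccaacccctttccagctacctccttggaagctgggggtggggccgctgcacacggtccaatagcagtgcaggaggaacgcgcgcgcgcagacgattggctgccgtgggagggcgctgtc

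The ER stress response element was found in 39 of 32851 RefSeq promoter windows of 300 bases (0.119%) and in 3 of the 10 studied here. In *Hspa5* it ran from 65 to 47 bases before the start. *Hsp90b1* held it 2 times, from 212 to 194 bases before the start and, on the other strand, from 107 to 89. In *Calr*, not shown, it lay on the other strand from 162 to 144 bases before the start. The ER stress response element II, found in 12 windows (0.0365%), lay from 52 to 42 bases before the start of *Herpud1*. *Herpud1* also held the composite site on the other strand, from 112 to 105 bases before its start, which 294 windows hold (0.895%). The Xbp1 and Atf6 site of *Hspa5*, from 157 to 151 bases before the start, is among 661 windows with those letters (2.01%). No match was found in *Sdf2l1* or in the other 5 promoters, which says only that these letters are not in the windows.

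In the GENCODE annotation of GRCm38 all 10 are protein-coding genes. Those whose counts the results turn on are *Hspa5* at chr2:34771970-34777547, *Hsp90b1* at chr10:86690209-86705509, *Pdia4* at chr6:47796141-47813430, *Herpud1* at chr8:94386438-94395377, *Sdf2l1* at chr16:17130138-17132383, *Xbp1* at chr11:5520659-5525893 and *Ddit3* at chr10:127290774-127296288. *Ddit3* overlaps *Mars* and *Gm4189* on the opposite strand, *Herpud1* overlaps *Gm15890* and *Hsp90b1* overlaps *1810014B01Rik*. Whether the counting used strand is not given in the sources used here, so reads of such pairs may not be told apart. On the same strand *Hsp90b1* also overlaps *Gm15344* and *Gm25745*, and *Pdia4* overlaps *Mir704*, which strand does not separate.

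Counts were unique molecular identifiers (UMIs), with 3841706 to 26184224 UMIs in the 1469 to 6740 cells kept per tumor. Tumor cells were taken as the clusters whose *Smarcb1* level lay below 0.25 of what immune-like cells of the same tumors predict, and the genes described here were not used for clustering. The tumor cells numbered 103, 16, 1719, 68, 195 and 605 in S1, S2, S3, E1, E2 and E3, beside 1299, 4471, 4782, 1441, 1750 and 2824 immune-like cells. Levels are UMIs of a gene scaled by the UMI total (counts per 1e6, CPM), over all cells of a kind in a tumor. The *Smarcb1* level, which chose the tumor cells and is a description only, was 0 of 559244 UMIs and 0 of 45898 UMIs in tumor cells of S1 and S2, which allow up to 5.36 and 65.4 CPM. In the tumor cells of S3, E1, E2 and E3 it was 3.31, 6.41, 1.65 and 2.15 CPM. The immune-like cells had 20.9 to 59.1 CPM. Whether the counted 3′ tags fall in the deleted part of the gene is not given in the sources used here. With 16 tumor cells, S2 gives the least precise values.

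Of 75 markers of immune cells, 68 are in the tables, and their summed level in tumor cells was 1111 to 14053 CPM against 12967 to 145659 CPM in immune-like cells, which is 6.26 to 10.6% of the immune level of the same tumor. *Ptprc*, which defines leukocytes, stood at 8.55 to 43.6 CPM in tumor cells and 104 to 429 CPM in immune-like cells. The summed level of 11 cytosolic heat shock genes, which respond to tissue dissociation, was higher in tumor cells in 6 of 6 tumors (5687 to 10169 against 2843 to 9563 CPM), and that of 8 immediate early genes in 3 of 6. The part of free RNA or dissociation in the results was not tested, and for doublets the cells with the highest doublet scores were left out as an alternative. Cell barcodes were not in the tables used here, so barcodes shared between libraries were not counted.

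The tumors' cells held less *Sdf2l1* and *Herpud1* than the immune-like cells around them, and *Hspa5*, *Hsp90b1*, *Calr* and *Pdia4* did not pass the test. *Sdf2l1*, a small protein of the ER lumen that works with the chaperone Hspa5, was lower in tumor cells of all 6 tumors. Of the 9 genes that passed the filter on low counts, 0 were higher and 2 were lower in tumor cells by edgeR's quasi-likelihood test with the tumor as a block. The background was 11.8% of 9353 genes called higher and 14.5% called lower, 1105 and 1353 genes, which became 1529 and 1112 with library sizes without TMM. The median log2 fold change was -0.51 over the 9 genes and -0.03 over all genes tested.

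**Figure D1:**
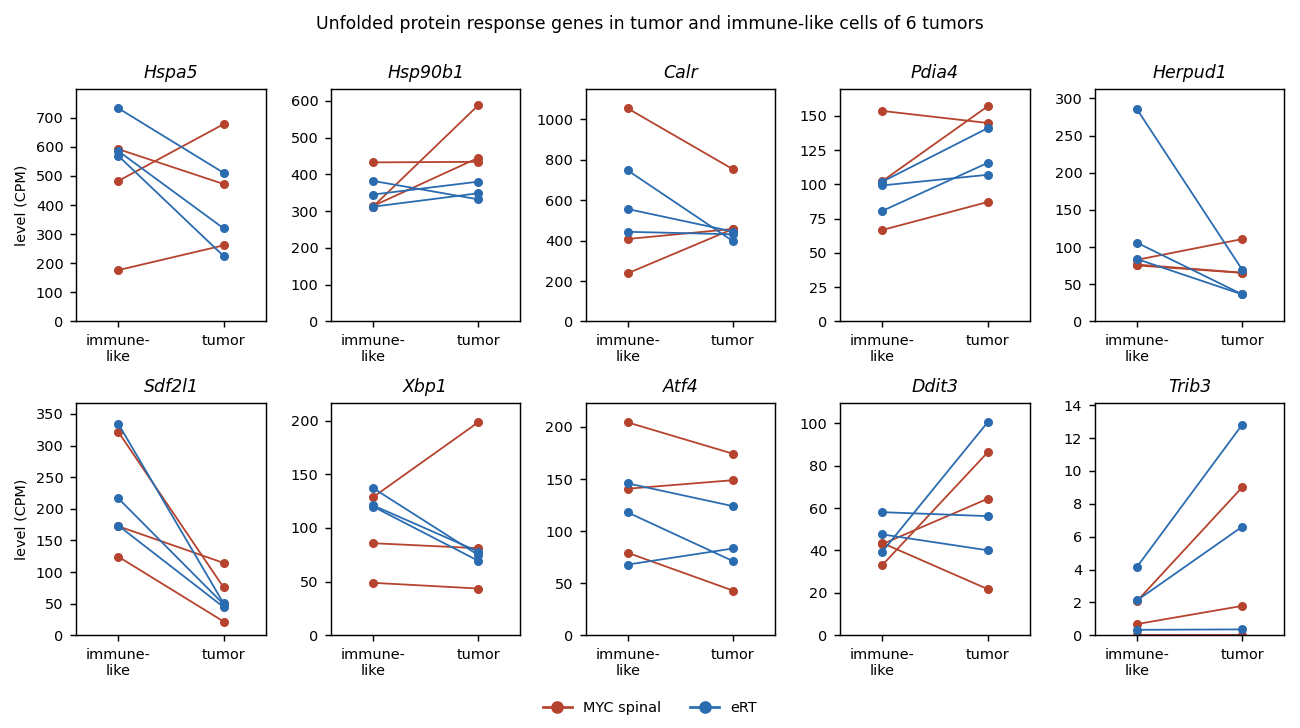
Level of each of the 10 genes (CPM) in tumor cells and in immune-like cells, with a line joining the values of each of the 6 tumors. The *Sdf2l1* lines all fall toward tumor cells, from a mean of 224 to 59.4 CPM, while those of *Hspa5* and *Ddit3* rise in some tumors and fall in others (red, MYC spinal; blue, eRT).

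*Sdf2l1* stood at 114, 21.8 and 75.8 CPM in the tumor cells of S1, S2 and S3 and at 49.1, 44.6 and 50.5 CPM in those of E1, E2 and E3. Their immune-like cells had 172, 124, 322, 216, 173 and 334 CPM. The groups did not overlap, and the level was lower in tumor cells of each tumor. In S2 the tumor cell level rests on 1 UMI of 45898. Its exact Poisson interval of 0.55 to 121 CPM overlaps that of the immune-like cells, 114 to 135 CPM. S2 therefore does not show the difference on its own, while in each of the other tumors the intervals did not overlap. The mean was 59.4 ± 32 CPM in tumor cells and 224 ± 85.9 CPM in immune-like cells (SD, n = 6), and *Sdf2l1* fell by 2.13 on the log2 scale (SE 0.31, edgeR adjusted p = 0.000531). It kept this call in all 18 alternatives tried, among them the *Smarcb1* limit of 0.15, which chose the same cells as the main setting.

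*Herpud1*, an ER membrane protein that helps to bring misfolded proteins to degradation, was at 111, 65.4 and 65.6 CPM in the MYC spinal tumor cells and at 36.3, 36.4 and 69.4 CPM in the eRT tumor cells. Immune-like cells had 83.0, 75.4 and 76.5 CPM of it in S1 to S3, then 83.9, 106 and 285 CPM in E1 to E3. It was lower in tumor cells in 5 of 6 tumors, with S1 the other way, and the ranges overlapped. *Herpud1* fell by 1.04 on the log2 scale (SE 0.33, edgeR adjusted p = 0.0411). This call was lost without S2 (adjusted p = 0.0620), without E1 (0.107), E2 (0.0958) or E3 (0.122), with library sizes without TMM (0.109) and without the block by tumor (0.0524).

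*Hspa5*, the Hsp70 chaperone of the ER known as BiP, had 678, 261 and 472 CPM in MYC spinal tumor cells and 511, 225 and 320 CPM in eRT tumor cells. The immune-like cells had 483, 176 and 592 CPM and 732, 569 and 585 CPM in the same order. Tumor cells of S1 and S2 were above their immune-like cells and those of the other 4 tumors below. The log2 fold change of *Hspa5* was -0.60 (SE 0.25, edgeR adjusted p = 0.108). Without S1 it was -0.84 (adjusted p = 0.0319), and DESeq2 called it too (adjusted p = 0.0247).

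*Hsp90b1*, the Hsp90 of the ER, stood at 445, 588 and 434 CPM in MYC spinal tumor cells and at 380, 349 and 332 CPM in eRT tumor cells. In immune-like cells it had 314, 312 and 433 CPM and 345, 312 and 382 CPM. *Pdia4*, a protein disulfide isomerase, stood at 145, 87.1 and 157 CPM and at 141, 116 and 107 CPM in tumor cells, against 154, 66.8, 102, 102, 80.7 and 99.3 CPM in immune-like cells. Each was higher in tumor cells in 5 of 6 tumors, but the ranges overlapped. The log2 fold change of *Pdia4* was 0.12 (SE 0.22, edgeR adjusted p = 0.758), and *Hsp90b1* had a standard error of 0.21 with an adjusted p of 1.0. *Calr*, a lectin chaperone of glycoproteins, was at 397 to 753 CPM in tumor cells and at 238 to 1054 CPM in immune-like cells, with a log2 fold change of -0.37 (SE 0.23, edgeR adjusted p = 0.289).

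Among the transcription factors, *Xbp1* had 198, 43.6 and 81.1 CPM in MYC spinal tumor cells and 74.8, 69.4 and 78.0 CPM in eRT tumor cells, against 129, 48.9, 85.8, 137, 120.0 and 121 CPM in immune-like cells. Only S1 had more *Xbp1* in tumor cells. Its log2 fold change was -0.52 (SE 0.25, edgeR adjusted p = 0.152), and without S1 it was -0.79 (adjusted p = 0.0426). *Atf4* had 42.9 to 174 CPM in tumor cells and 67.9 to 204 CPM in immune-like cells, and a log2 fold change of -0.51 (SE 0.25, edgeR adjusted p = 0.168).

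*Ddit3* stood at 64.4, 21.8 and 86.2 CPM in MYC spinal tumor cells and at 100.4, 56.2 and 40.1 CPM in eRT tumor cells. The immune-like cells had 43.0, 43.5, 33.1, 39.5, 58.1 and 47.6 CPM, so 3 tumors were higher and 3 lower in tumor cells. The spread was wider among tumor cells (61.5 ± 29.0 CPM) than among immune-like cells (44.1 ± 8.36 CPM, SD, n = 6), and the log2 fold change was 0.31 (SE 0.33, edgeR adjusted p = 0.543). *Trib3* was too low to pass the filter in the comparisons of tumor cells with other cells. Its tumor cell UMIs numbered 1, 0, 79, 6, 4 and 1 in S1 to S3 and E1 to E3, or 1.79, 0, 9.01, 12.8, 6.61 and 0.358 CPM. In immune-like cells it was at 0.683, 0, 2.09, 4.17, 2.12 and 0.333 CPM. Tumor cells were higher in 5 of 6 tumors, with 1 UMI in tumor cells of each of S1 and E3. With every gene tested, *Trib3* was 1.38 higher on the log2 scale than in all immune-like cells (SE 0.56, edgeR adjusted p = 0.0982) and 1.56 higher than in macrophage-like cells (SE 0.60, adjusted p = 0.0393). Against macrophage-like cells, which held 0 to 5 UMIs of it per tumor, tumor cells were higher in 3 of 6 tumors and lower in 2. *Trib3* passed against no other type, and against monocyte-like cells its log2 fold change was -0.02.

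Shares of cells with a UMI depend on depth, and tumor cells were deeper, with median UMIs of 2049 to 6142 against 854 to 4528 in immune-like cells. After each cell was thinned to 1000 UMIs, which left out 24 of 2706 tumor cells and 3184 of 16567 immune-like cells, *Sdf2l1* was found in 9.80, 0 and 5.88% of MYC spinal tumor cells and in 4.41, 4.02 and 6.12% of eRT tumor cells. The 0 of 14 cells in S2 allows up to 21.4%. In the thinned immune-like cells it was found in 11.6, 11.6, 26.4, 17.8, 13.5 and 25.3%. Before thinning, the shares in S3 were 24.4% of tumor cells (95% exact interval 22.4 to 26.5%) and 56.1% of immune-like cells (54.7 to 57.5%), and in S1 they were 36.9 and 23.6%, the other way round from the thinned shares. *Ddit3* was found in 7.84 against 3.44% of thinned cells in S1 and in 7.68 against 3.49% in S3, but in 4.6 against 5.39% in E2 and 3.80 against 5.12% in E3. *Trib3* was found unthinned in 4.01% of tumor cells and 0.648% of immune-like cells of S3, and in 7.35 and 1.87% in E1. No cell type is known to lack these genes, so no share of background from free RNA could be set beside them, and intervals cover counting error only.

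Immune-like cells are a mixture whose makeup differs between tumors, so tumor cells were also set against each cell type in 1 model over 7606 genes. Types were named from their markers and are called X-like. The B-like clusters were led also by *Jchain* and *Mzb1*, which plasma cells use in making antibody. That of the eRT was led also by *Cox6a2*, a marker used here for plasmacytoid dendritic cells, a name given to no eRT cluster. Some eRT monocyte-like clusters were led by *Hilpda* and *Vegfa* or by interferon-induced genes such as *Rsad2*. Of the osteoclast-like cells, the largest cluster (1606 cells, nearly all of S3) was led by *Sbsn* and *Lpl* and had none of its markers among its top 10 genes.

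**Figure D2:**
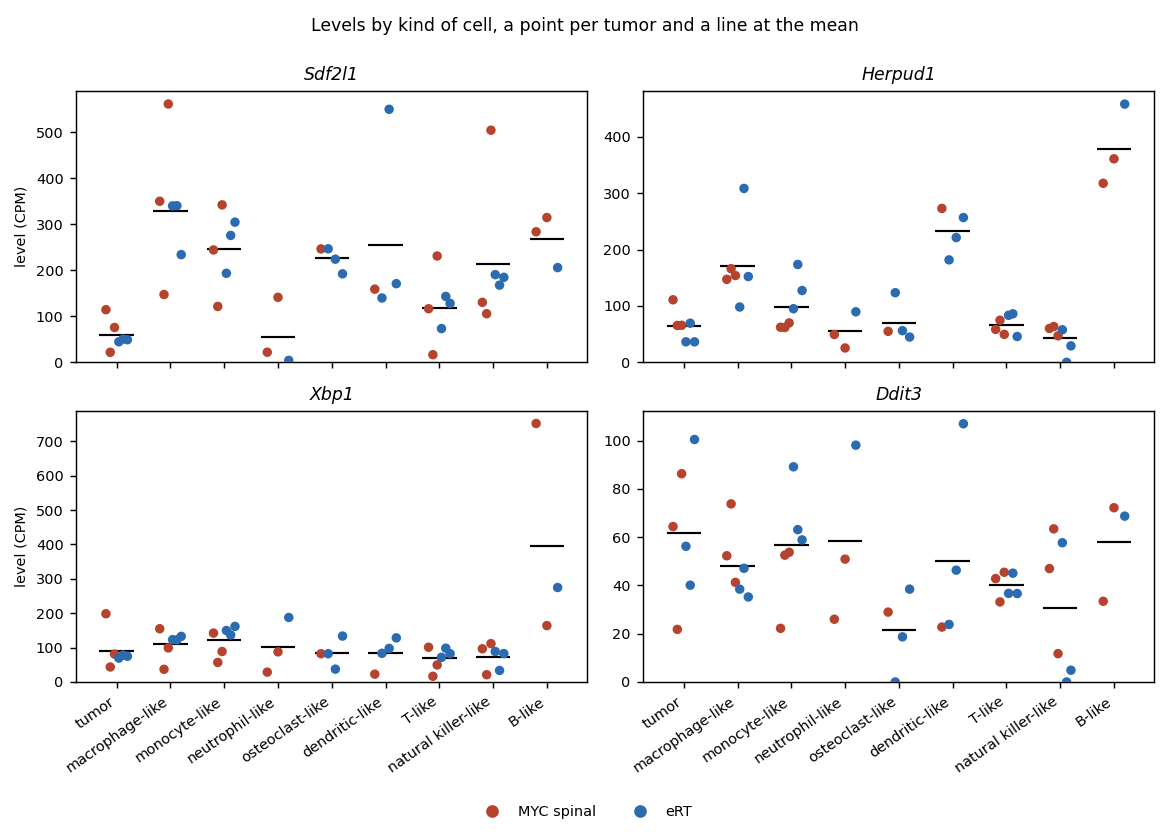
Level (CPM) of *Sdf2l1*, *Herpud1*, *Xbp1* and *Ddit3* by kind of cell, with a point for each tumor with at least 10 such cells (red, MYC spinal; blue, eRT) and a line at the mean. The B-like mean is the highest for *Herpud1* and *Xbp1*, at 379 and 397 CPM, while the *Ddit3* points of the kinds overlap.

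B-like cells, which numbered 24, 211 and 26 in S1, S2 and E2, had the highest mean level of several of these genes. *Herpud1* was at 317, 361 and 458 CPM in B-like cells of S1, S2 and E2, *Hsp90b1* at 2005, 1115 and 824 CPM, *Pdia4* at 852, 341 and 206 CPM and *Xbp1*, which drives the secretory program of plasma cells, at 752, 164 and 275 CPM. Each of these values lies above that of the tumor cells of the same tumor, and those of *Pdia4* and *Xbp1* in E2 rest on 9 and 12 UMIs. Against B-like cells, 5 of 9 genes were lower in tumor cells and 0 higher, where 16.4% of all genes were called in either direction. The log2 fold change was -2.65 for *Sdf2l1* (edgeR adjusted p = 3.92e-05), -2.45 for *Herpud1* (7.54e-06), -2.08 for *Xbp1* (4.09e-05), -1.75 for *Pdia4* (3.93e-05) and -1.59 for *Hsp90b1* (0.00013). The difference in *Hsp90b1* was -0.72 (adjusted p = 0.160) when the cells with the highest doublet scores were left out.

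Macrophage-like cells were present in all 6 tumors. They had 350, 148 and 562 CPM of *Sdf2l1* in S1, S2 and S3 and 234, 340 and 341 CPM in E1, E2 and E3, each above the tumor cells of that tumor. *Sdf2l1* fell by 2.56 (edgeR adjusted p = 1.41e-07) and *Herpud1* by 1.53 (4.82e-05) on the log2 scale in tumor cells, both in 6 of 6 tumors and in all 16 alternatives. These were the 2 genes of 9 called against macrophage-like cells, where 40.1% of all genes were.

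Against monocyte-like cells, where 40.7% of genes were called, 3 of 9 genes were lower in tumor cells. *Sdf2l1* fell by 2.18 (edgeR adjusted p = 2.85e-06) in 6 of 6 tumors. *Herpud1* fell by 0.76 (0.0393) in 4 of 6 and *Xbp1* by 0.68 (0.0463) in 5 of 6. *Herpud1* kept its call in 6 of 16 alternatives and *Xbp1* in 9 of 16. *Herpud1* lost it without any 1 of the eRT, with differences of -0.44 to -0.76 and adjusted p of 0.0547 to 0.330, and so did *Xbp1*, with adjusted p of 0.0861 to 0.221.

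Dendritic-like cells held 257, 273, 221 and 182 CPM of *Herpud1* in E1, S3, E3 and E2, above the tumor cells in 4 of 4. Against them *Herpud1* fell by 1.66 (edgeR adjusted p = 0.000385), *Sdf2l1* fell by 1.93 (0.000315) and *Pdia4* was 1.32 higher (0.00213) on the log2 scale, 3 of 9 genes where 29.8% of all were called. Without E2 *Pdia4* was 0.87 higher (adjusted p = 0.0826), and without E3 *Sdf2l1* was lower by a log2 fold change of -1.12 (0.0825). Against osteoclast-like cells, where 28.4% were called, *Sdf2l1* alone of the 9 passed, with a log2 fold change of -1.59 (edgeR adjusted p = 0.00257) and -1.30 without E1 (0.0775). *Sdf2l1* in osteoclast-like cells was 192 to 247 CPM over 4 tumors.

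Against T-like cells *Hsp90b1* was higher in tumor cells by 0.79 (edgeR adjusted p = 0.0095) in 6 of 6 tumors, with T-like levels of 224 to 351 CPM, and *Pdia4* by 0.61 (0.0474) in 6 of 6. These were 2 of 9 genes, beside 38.2% of all genes. The *Pdia4* call was lost in 14 of 16 alternatives, among them the omission of any single tumor (adjusted p of 0.0509 to 0.360). Against natural killer-like cells 34.7% of genes were called. In these cells *Ddit3* stood at 47.0, 63.4, 11.7, 4.87, 57.7 and 0 CPM in S1, S2, S3, E1, E2 and E3, the last from 29780 UMIs in all. These levels rest on 18, 3, 2, 1, 13 and 0 UMIs, so those of S2, S3, E1 and E3 are of 3 UMIs or fewer. *Ddit3* was 1.28 higher in tumor cells (edgeR adjusted p = 0.0193), in 4 of 6 tumors, kept this call in 12 of 16 alternatives, and lost it without S3 (0.77, adjusted p = 0.242) or without E1 (0.76, 0.228). *Sdf2l1* fell by 1.56 (edgeR adjusted p = 0.000868) in 6 of 6 tumors against these cells. *Pdia4* was 0.70 higher (0.0337) but lost the call in 13 of 16 alternatives, including the omission of 5 of the 6 tumors singly (0.0917 to 0.216).

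Neutrophil-like cells had the lowest mean of *Hspa5*, *Hsp90b1*, *Calr*, *Pdia4* and *Sdf2l1*. In S2, S3 and E2 they had 14.0, 36.7 and 12.8 CPM of *Pdia4* and 121, 189 and 42.6 CPM of *Hsp90b1*, each below the tumor cells. On the log2 scale *Pdia4* was 1.58 higher in tumor cells (edgeR adjusted p = 0.000442), *Calr* 1.08 (0.0147) and *Hsp90b1* 0.98 (0.0135), each in 3 of 3 tumors. *Xbp1* had a log2 fold change of -1.35 (edgeR adjusted p = 0.00198) in 2 of 3 tumors and lost its call without TMM (-0.41, 0.308) or without the block (-1.16, 0.0613). *Calr* lost its call without the block as well (0.95, 0.108). These 4 of 9 genes stand beside 42.8% of all genes called.

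**Figure D3:**
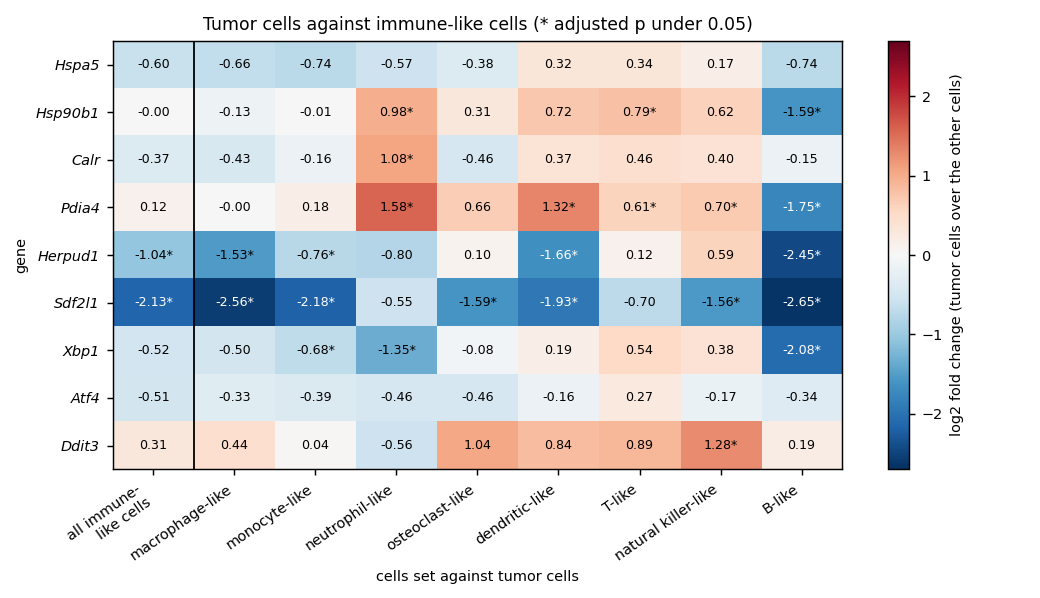
Heat map of the log2 fold change of tumor cells over all immune-like cells and over each type (columns) for the 9 genes tested (rows), with the value in each cell and an asterisk at an edgeR adjusted p under 0.05. *Sdf2l1* is blue, lower in tumor cells, from -0.55 against neutrophil-like cells to -2.65 against B-like cells, without an asterisk against neutrophil-like and T-like cells, and *Pdia4* runs from -1.75 against B-like to 1.58 against neutrophil-like cells.

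The order of the types can be read gene by gene, though the means of the types are over different tumors. For *Herpud1*, B-like cells (379 ± 71.9 CPM, n = 3) stood above dendritic-like cells (233 ± 40.5 CPM, n = 4) by more than the larger SD, as did macrophage-like (171 ± 71.3 CPM, n = 6) over monocyte-like cells (98.3 ± 44.6 CPM, n = 6), and tumor cells (64.0 ± 27.4 CPM, n = 6) could not be told by that measure from their neighbors, T-like and neutrophil-like cells. For *Sdf2l1*, no neighbors in the order differed by more than the larger SD, and tumor cells (59.4 ± 32 CPM) came next to last, beside neutrophil-like cells (55.9 ± 74.6 CPM, n = 3). In the 3 tumors with both, S2, S3 and E2, neutrophil-like cells had 22.0, 141 and 4.26 CPM and tumor cells were lower in 2 of 3. *Ddit3* had its highest mean in tumor cells (61.5 ± 29.0 CPM), but neutrophil-like cells (58.3 ± 36.6 CPM) differed from them by less than the SD and were higher than tumor cells in 2 of 3 tumors. In *Hspa5* tumor cells came 5 of 9 in the order. In 2 tumors with at least 10 granulocyte progenitor-like cells, these held 376 CPM of *Sdf2l1* (S2) and 1069 CPM (S3), the highest of any kind there. The fibroblast-like cells of E3 are from a cluster just above the *Smarcb1* limit, with 4 UMIs of *Smarcb1* against 11.8 predicted, and count as tumor cells at a limit of 0.5. They had 165 CPM of *Herpud1* (95% exact Poisson interval 115 to 229) and 75.2 CPM of *Sdf2l1* (43.0 to 122), against 69.4 and 50.5 CPM in the tumor cells, with no replicate.

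Within tumors the tumor clusters were not alike. In E1, the 39 tumor cells with epithelial markers, led by *Cldn4*, had 171 CPM of *Ddit3* (95% exact Poisson interval 123 to 232), against 21.8 CPM (5.95 to 55.9) in the tumor cells led by *C1qtnf3*, which carry fibroblast markers, and 44.6 CPM (5.40 to 161) in the 11 cells led by *Ctla2a*. The same epithelial-marker cells had 734 CPM of *Hspa5* (629 to 850), against 311 CPM (236 to 403) in the *C1qtnf3*-led and 134 CPM (49.1 to 291) in the *Ctla2a*-led cells. In E2, the *C1qtnf3*-led cells had 312 CPM of *Hspa5* (256 to 377), 84.5 CPM of *Ddit3* (56.6 to 121) and 117 CPM of *Xbp1* (83.3 to 159). The *Ctla2a*-led cells of that tumor had 111 CPM (74.2 to 159), 19.1 CPM (6.20 to 44.6) and 7.64 CPM (0.925 to 27.6) of the same genes. In E3 the same pair of clusters had 326 CPM (304 to 349) and 227 CPM (161 to 311) of *Hspa5*, and of *Ddit3* 38.8 CPM (31.7 to 47.1) and 59.7 CPM (28.6 to 110), whose intervals overlap. Of the tumor cells, 79 of 103 in S1 and 13 of 16 in S2 were of a *Cxcl12*-led cluster with fibroblast markers, which held 0 cells of S3. In S1 that cluster had 676 CPM of *Hspa5* (601 to 757) and 225 CPM of *Xbp1* (182 to 273). The 20 *Dlk1*-led cells of S1 had 717 CPM (569 to 893) and 108 CPM (55.6 to 188).

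In S3, the *Crabp1*-led tumor cells were low in *Xbp1*, at 4.85 CPM (0.587 to 17.5), and in *Herpud1*, at 12.1 CPM (3.93 to 28.3). The *Dlk1*-led cells had 82.7 CPM (76.4 to 89.4) and 68.5 CPM (62.8 to 74.6), and the *Bex1*-led cells 109 CPM (86.0 to 137) and 65.1 CPM (47.3 to 87.4). *Trib3* was at 0 of 412620 UMIs in the *Crabp1*-led cells and at 8.73 CPM (6.76 to 11.1) in the *Dlk1*-led cells. The *Crabp1*-led cells were also shallower, with 412620 UMIs in 180 cells against 7676974 UMIs in 1440 *Dlk1*-led cells. Whether depth or cell quality has a part in the differences between tumor clusters was not tested. The intervals cover counting error only, the clusters of 1 tumor are not replicates, and no test was made.

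**Figure D4:**
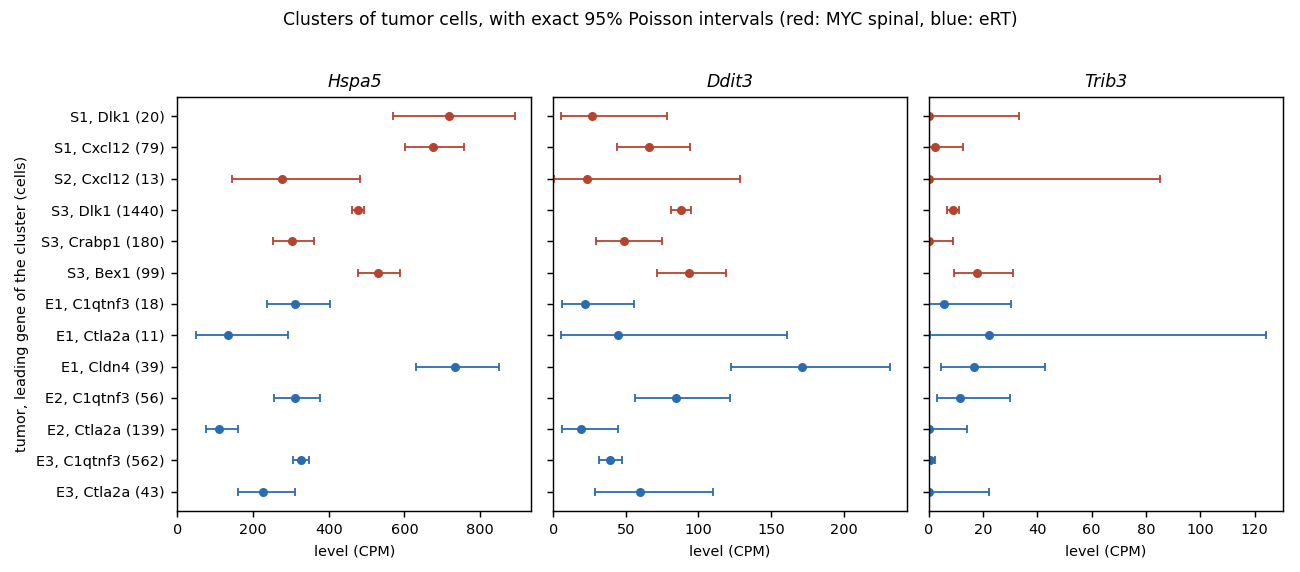
Level (CPM) of *Hspa5*, *Ddit3* and *Trib3* in each cluster of tumor cells, named by tumor (S, MYC spinal, red; E, eRT, blue) and leading gene, with bars for the 95% exact Poisson interval. In E1 the *Cldn4*-led cells, those with epithelial markers, stand at 171 CPM of *Ddit3*.

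Between the subtypes no member and no other gene was called by edgeR. In tumor cells *Hspa5* averaged 470 ± 208 CPM in MYC spinal tumors and 352 ± 146 CPM in eRT, *Sdf2l1* 70.7 ± 46.5 and 48.1 ± 3.06 CPM, *Herpud1* 80.6 ± 26.2 and 47.4 ± 19.1 CPM, and *Ddit3* 57.5 ± 32.8 and 65.6 ± 31.2 CPM (SD, n = 3 each). The ranges of the subtypes overlapped for each of these 4 genes. Of 5619 genes tested in tumor cells, edgeR called 0 (0%), with 208 at an unadjusted p under 0.05, and DESeq2 called 18. In immune-like cells it called 0 of 10435 (0%), with 420 at an unadjusted p under 0.05, and DESeq2 called 61. For the difference of tumor and immune-like cells between subtypes, it called 0 of 11196 (0%), with 331 at an unadjusted p under 0.05, and DESeq2 called 3. None of the 10 genes was among those of DESeq2. The *Herpud1* contrast of tumor and immune-like cells was more negative in eRT by a log2 fold change of -1.46 (SE 0.52), which did not pass (edgeR adjusted p = 1).

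The other genes of the pathway were taken as lists. Of the 4 sensor genes 0 were higher and 1, *Atf6*, was lower in tumor cells, with a median log2 fold change of -0.91, where all genes had -0.03. Of 15 further ER chaperones and folding enzymes, 2 were higher and 1 lower (median -0.14). *Txndc5*, of the disulfide isomerase family, was at 73.3 to 125 CPM in tumor cells and 27.6 to 36.7 CPM in immune-like cells, a log2 fold change of 1.19 (SE 0.24, edgeR adjusted p = 0.0042). *Ppib*, a prolyl isomerase of the ER, was at 564 to 948 CPM against 175 to 487 CPM, 0.70 higher (SE 0.20, adjusted p = 0.0266). For both genes the ranges did not overlap, a trait whose share among all genes is not reported here. The 1 lower was *Ero1lb*, an oxidase of the ER.

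Of 15 genes of ER-associated degradation, 0 were higher and 2 lower (median -0.22). *Edem1*, which trims mannose from misfolded glycoproteins, was at 0 to 27.8 CPM in tumor cells and 49.5 to 177 CPM in immune-like cells and had a log2 fold change of -2.64 (SE 0.28, edgeR adjusted p = 8.51e-05). Its relative *Edem2* had -1.25 (SE 0.30, adjusted p = 0.0105), lower in 6 of 6 tumors. Among 16 genes of translocation and secretion, known as Xbp1 targets, 3 were higher and 2 lower (median 0.06). The signal peptidase subunit *Sec11c* had 26.4 to 130 CPM in tumor cells and 176 to 421 CPM in immune-like cells (log2 fold change -2.48, SE 0.22, edgeR adjusted p = 5.36e-05), and *Spcs2* of the same complex had -0.78 (adjusted p = 0.0330). *Kdelr1* and *Kdelr2*, receptors that return escaped ER proteins from the Golgi, were 0.89 (edgeR adjusted p = 0.00649) and 0.77 (0.0208) higher, each in 6 of 6 tumors, and the remaining called gene was *Sec24d*, higher.

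Of 17 targets of Atf4 and the integrated stress response, 3 were higher and 4 lower (median -0.11). *Slc7a11*, a cystine transporter, was at 0 to 26.4 CPM in tumor cells and 7.85 to 790 CPM in immune-like cells, with a log2 fold change of -4.18 (SE 0.46, edgeR adjusted p = 0.000116). *Nupr1* had -2.93 (adjusted p = 0.00974) and *Cebpb*, which is also a myeloid transcription factor, -1.61 (0.0476). *Phgdh*, of serine synthesis, was 1.26 higher (SE 0.42, edgeR adjusted p = 0.05) in 5 of 6 tumors, with 0 UMIs in the 16 tumor cells of S2. The remaining called genes were *Asns* and *Sesn2*, higher, and *Mthfd2*, lower.

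The lists set beside these for stress of dissociation moved as follows. Of 11 cytosolic heat shock genes 3 were higher and 0 lower (median 0.39), *Hspb1* by 5.35 (edgeR adjusted p = 0.000932), *Hsph1* by 1.78 (0.00194) and *Hsp90ab1* by 0.79 (0.0478), each in 6 of 6 tumors. Of 8 immediate early genes 1 was higher, *Egr1* by 1.66 (edgeR adjusted p = 0.0114), and 3 were lower, *Dusp1* with -2.88 (0.00299), *Zfp36* with -1.54 (0.00288) and *Junb* with -1.32 (0.0337).

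**Figure D5:**
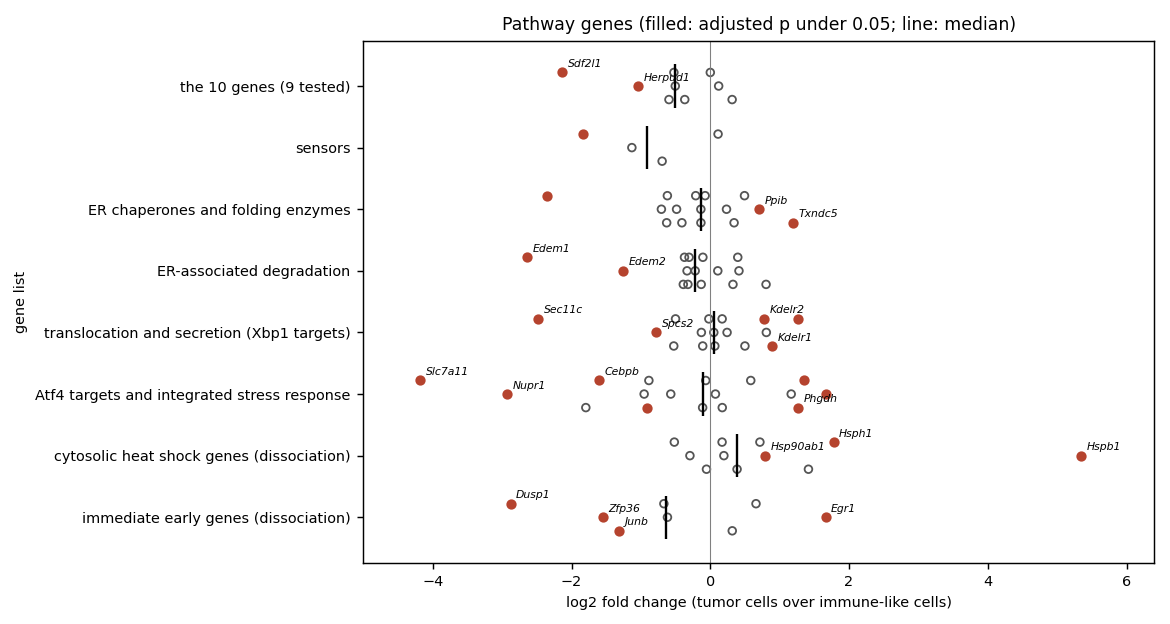
Log2 fold change of tumor cells over immune-like cells (x axis) for each tested gene of the members and 7 lists (rows), filled where the edgeR adjusted p is under 0.05, with a line at the median. The list medians run from -0.91 for the sensors to 0.39 for the cytosolic heat shock genes.

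Soluble proteins of the ER lumen carry a KDEL-type signal at their end, by which the receptors return them. By the GENCODE coding sequences 62 of 21648 genes (0.286%) end in such a signal, among them 5 of the 10 studied here, *Hspa5*, *Hsp90b1*, *Calr*, *Pdia4* and *Sdf2l1*. Of 42 such genes tested, 17 were higher and 3 lower in tumor cells, with a median log2 fold change of 0.49. Without the 5, 17 of 37 were higher and 2 lower (median 0.94), the latter *Erp29*, an ER folding factor, and *Pfkp*, a cytosolic enzyme of glycolysis. The largest changes were those of *Serpinh1*, a collagen chaperone, at 250 to 1323 CPM in tumor cells and 0 to 15.4 CPM in immune-like cells (log2 fold change 8.15, SE 0.82, edgeR adjusted p = 7.84e-05), and of *Fkbp10*, a prolyl isomerase that acts on collagen, at 74.4 to 231 against 0 to 2.21 CPM (7.17, SE 0.65, adjusted p = 5.78e-05). *Rcn3* and *Rcn1*, calcium-binding proteins of the ER, were 4.22 (edgeR adjusted p = 4.2e-05) and 3.72 (0.000383) higher. Of the 5 chaperones studied here, 0 were higher and *Sdf2l1* was lower. Genes with this signal outside the pathway lists, such as *Serpinh1*, were not left out of the clustering. Their changes may therefore not be independent of how the tumor clusters were drawn.

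Over 38 sums of a cell type in a tumor with at least 50 cells, likeness of genes was described by Pearson's r of log2(CPM + 10), among 5116 genes. Sums of 1 tumor share a library, so these are descriptions. *Hspa5* was most like *Eif4a1* (0.78), *Dnajb11* (0.76), *Lman2* (0.75), *M6pr* (0.72) and *Pdia6* (0.72), of which *Dnajb11* and *Pdia6* encode ER folding factors. *Xbp1* was most like *Slc31a1* (0.77), *Rab7* (0.73), *Rab22a* (0.72), *Vta1* (0.71) and *Fam50a* (0.71). *Ddit3* had lower values, with *Selk* (0.56), *Dnajb9* (0.55), *Jun* (0.55) and *Reep3* (0.55). Among the members, *Hsp90b1* and *Pdia4* had the highest r (0.83), *Hspa5* and *Xbp1* had 0.70, and *Xbp1* and *Atf4* had the lowest, -0.56. *Ddit3* had an r of 0.09 with *Hspa5* and 0.20 with *Atf4*.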

How the data were processed

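Single cells of 3 MYC spinal tumors and 3 eRT were measured. The authors made 10x Genomics 3′ v2 libraries, aligned them to mm10 with Cell Ranger 2.0.2 and deposited raw counts, UMIs per gene and cell, in a table per tumor that lists genes found in at least 3 cells. Per-sample columns not used number 0. The genes studied, the pathway lists and the tests were chosen with earlier results of these data known.

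Of the cells, 22163 passed a minimum of 200 genes and a maximum of 25% mitochondrial UMIs. Each subtype was integrated over its tumors by Seurat 5.3.0 anchors on 2000 variable genes, without the genes studied, the pathway lists and *Smarcb1*, and clustered on 30 dimensions with 20 neighbors at resolution 0.8. A type name needed 3 markers or more, each detected in 10% of the cluster and raised by a log2 fold of 1 over other cells. Tumor clusters fell below 0.25 of the *Smarcb1* UMIs predicted by immune-like cells, where 10 or more were predicted. Scrublet in scanpy 1.11.5 marked 21 cells (0.0948%), which means it did not work, so doublets were not removed.

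UMIs were summed per tumor and kind of cell, for kinds with at least 10 cells, and scaled to CPM for description. Sums were tested with edgeR 4.0.16 in R 4.3.3 (TMM, filterByExpr, quasi-likelihood test, Benjamini-Hochberg adjustment over all genes at 0.05). Tumor and immune-like cells of the same animal were paired by a block for the tumor. Types entered when at least 3 tumors had 10 such cells. Exact Poisson and binomial intervals are at 95%, and a count of 0 allows up to 3 counts, all for counting error only. The tests were tried on simulated counts with known changes. Python 3.11.15, numpy 2.4.6, pandas 2.3.3 and scipy 1.17.1 were used.

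The genes named are the 10 members, up to 4 genes of each list with the largest change among those past the threshold whose mean log2 CPM reached 5, and, for *Hspa5*, *Xbp1* and *Ddit3*, the 5 genes most like them among those with a mean CPM of at least 20, of which 1 is not reported here. *Smarcb1*, *Ptprc*, the leading genes of clusters, and *Atf6*, *Ero1lb*, *Sec24d*, *Erp29*, *Pfkp*, *Asns*, *Sesn2* and *Mthfd2* were named outside that rule, after their values were seen. KDEL-type ends were found by translating the ends of GENCODE coding sequences, since no protein table was used. Promoters are RefSeq's, 250 bases before to 50 after a start.

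The alternatives were DESeq2 1.42.0, library sizes without TMM, every gene with at least 1 UMI, *Smarcb1* limits of 0.15 and 0.5, resolutions 0.4 and 1.6, a minimum of 500 genes with a maximum of 10% mitochondrial UMIs, omission of the 843 highest doublet scores, each tumor left out, no block, thinned cells, and means per cell. A reference without osteoclast-like cells was chosen after seeing the data. Subtypes were compared over separate animals.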

Additional observations from a re-analysis of the deposited data

How the results depend on the processing

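No result that passed its test turned its direction under an alternative. Values that did not pass could turn, such as *Hsp90b1* (-0.13 to 0.26) and *Pdia4* (-0.06 to 0.35) against all immune-like cells, *Ddit3* against B-like cells (-0.96 to 0.59) and *Atf4* against neutrophil-like cells (-1.08 to 0.49). Without TMM the median log2 fold change of all genes went from -0.03 to 0.18 against all immune-like cells and from 0.06 to 0.98 against neutrophil-like cells, and that of the 9 genes from -0.51 to -0.26 and from -0.55 to 0.48. The count of genes called higher and lower in tumor cells rose to 2042 and 2059 when every gene with at least 1 UMI was tested. Between subtypes DESeq2 called 15 genes higher and 3 lower in tumor cells, 24 and 37 in immune-like cells, and 2 and 1 for the interaction. By edgeR 0 to 1 genes were lower for the interaction with 1 tumor left out. No paired analysis of the subtypes was possible because replicate numbers of eRT and MYC spinal tumors name different animals.

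Of the 9 genes, 1 was lower than in all immune-like cells without TMM and 1 with no replicate block, and 1 to 4 with 1 tumor left out (4 without S1). Against types, the call counts moved as follows. Without TMM, 2 were higher than in dendritic-like, 0 than in natural killer-like, 1 than in osteoclast-like and 1 than in T-like cells, and 1 was lower than in monocyte-like and 0 than in neutrophil-like cells. With no replicate block, 1 was lower than in monocyte-like and 0 than in neutrophil-like cells, and 1 was higher than in natural killer-like and 1 than in T-like cells. With every gene, 1 was higher than in macrophage-like, 0 than in natural killer-like and 0 than in T-like cells. With DESeq2, 1 was higher than in natural killer-like and 1 than in osteoclast-like cells, and 1 lower than in T-like cells. At resolution 0.4, 1 was higher than in natural killer-like, 1 than in osteoclast-like and 1 than in T-like cells, and at 1.6, 1 was higher than in natural killer-like and 1 than in T-like cells and 2 were lower than in osteoclast-like cells. With stricter cells, 1 was higher than in natural killer-like and 1 than in T-like cells, at the *Smarcb1* limit of 0.5, 1 was higher than in T-like and 1 lower than in monocyte-like cells, and without high doublet scores, 1 was higher than in natural killer-like and 1 lower than in monocyte-like cells. With 1 tumor left out, 0 to 2 were higher and 1 to 2 lower than in dendritic-like cells, 1 to 4 lower than in monocyte-like, 0 to 2 higher than in natural killer-like, 0 to 2 higher and 0 to 1 lower than in osteoclast-like, and 1 to 1 higher and 0 to 1 lower than in T-like cells.

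As a mean per cell, the log2 difference of *Pdia4* was 0.58, against 0.31 in CPM. Thinned to 1000 UMIs, the mean difference in shares of cells with a UMI, tumor minus immune-like, went from 21.1 to 0.0546 percentage points for *Hsp90b1*, from 20.1 to 3.08 for *Pdia4*, from 6.54 to -3.35 for *Atf4* and from 7.90 to 0.641 for *Ddit3*, and also turned below 0 for *Hspa5* (5.87 to -6.83), *Herpud1* (1.66 to -5.05) and *Xbp1* (6.81 to -1.50). Of the values of the comparisons, 445 were counted as unchanged, which does not mean that each moved little. They include the share differences of *Hspa5*, *Herpud1* and *Xbp1*, which turned below 0, and that of *Calr*, which shrank but stayed above 0. Of values for single genes, 1576 kept their side of the threshold, 62 lost a call and 23 gained one. The cause of these changes was not tested. Depth limits what S2 can show, with 16 tumor cells and 45898 UMIs, and *Trib3* in every tumor.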
